A study of Mus musculus with 21 samples.

Results

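The genes described here encode the subunits of integrins and laminins, read in mouse heart RNA after doxorubicin (DOX) with and without a subcutaneous tumor. They were chosen by symbol, among the integrin alpha (Itga), integrin beta (Itgb) and laminin chain (Lam) genes of the expression table, and the symbol rule uses no measured value. Described are 36 of the 56691 genes listed: 18 integrin alpha genes, 8 integrin beta genes and 10 laminin genes. Of these, 23 had a mean of at least 0.5 FPKM (the count of a gene scaled by its exonic length and by the library total) over all libraries and were tested, namely 11 alpha, 5 beta and 7 laminin genes.

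The series holds 21 libraries in 4 groups. Control mice (5 libraries) carried no tumor and received no DOX, the DOX group (5 libraries) carried no tumor and received DOX by intraperitoneal injection, 5 mg/kg each week for 3 weeks, the Tb group (6 libraries) carried tumors grown from injected 4T1 mouse breast cancer cells, and the Tb-DOX group (5 libraries) carried the same tumors and received the same DOX course. The control arms were given normal saline. Strain, sex and age are not given in the sources used here, and nothing in the labels says that each library came from its own mouse, so p-values measure the spread between libraries. The 4T-1 line is given as source in the labels of every library, although the study took hearts. The sum of 7 cardiomyocyte markers was 43200 to 81600 CPM (counts scaled by library size with TMM, the trimmed mean of M-values) over all libraries, and the sum of 7 epithelial and 4T1 markers was 0.196 to 4.84 CPM, so heart markers were high and the markers of the named line were near 0. Depth was 13521200 to 18601445 counts per library.

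Laminins are cross-shaped proteins of the basement membrane, each made of 1 alpha, 1 beta and 1 gamma chain, and the sheet they form surrounds every cardiac muscle cell and lines every capillary. Integrins are receptors of 1 alpha and 1 beta chain that span the cell membrane, hold the matrix or another cell on the outside and tie to actin through adaptor proteins on the inside. In heart muscle, pairs of Itgb1 with laminin-binding alpha chains anchor the cell at its costameres, whereas the Itgb2 family and Itga4 serve the adhesion of white blood cells to vessel walls.

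Among beta subunits, Itgb1, the partner of most matrix-binding alpha chains, had the highest level at 127.8 ± 8.73 FPKM in Control (SD, n = 5). Itgb5, a partner of Itgav, followed at 22.64 ± 3.70 FPKM. The highest alpha subunit was Itga7, the laminin receptor chain of striated muscle, at 13.38 ± 0.73 FPKM in Control, followed by Itga9 at 10.22 ± 1.44 FPKM and Itga5, the fibronectin receptor chain, at 9.80 ± 0.648 FPKM. The Control libraries of these alpha genes separated Itga7 (12.84 to 14.66 FPKM) from Itga9 (8.70 to 12.22 FPKM), whereas Itga9 and Itga5 (9.05 to 10.71 FPKM) overlapped.

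Among laminin beta chains 1 gene dominated, and Lamb2 made up 76.7% ± 1.37 of the summed laminin beta FPKM in Control. The alpha chains were shared by Lama2, the muscle chain (40.1% ± 5.15), Lama4, the chain of capillary and muscle basement membranes (31.5% ± 3.05), and Lama5, a chain of vessel walls (27.5% ± 4.83). Lama1 had 0 to 8 counts and Lamc3 0 to 10 counts per library, near the limit of detection at this depth.

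The first comparison asked how DOX changed these genes in hearts of mice without a tumor. Of the 23 genes, 2 rose and 7 fell in DOX against Control, at an adjusted p under 0.05 in edgeR's quasi-likelihood test with Benjamini-Hochberg adjustment over 13990 genes. In that comparison 36.2% of all genes tested were called, 18% as higher and 18.2% as lower. The genes that fell were Lama4, Lamb1, Itga6, Itga1, Itga9, Itgav and Itgb6, and those that rose were Itga3 and Itgb3. The median log2 fold change was −0.10 over the 23 genes and 0.00 over all genes tested. The libraries of the groups did not overlap in 9 of the 23 genes, against 25.2% of all genes tested. FPKM is scaled by the library total and the fold changes by TMM, which raised the all-gene median of this comparison from −0.14 to 0.00 (log2). Scaled by totals alone, 1 of the 23 genes rose and 9 fell, beside 1419 and 3532 of all genes, where TMM scaling gave 2523 and 2548.

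**Figure D1:**
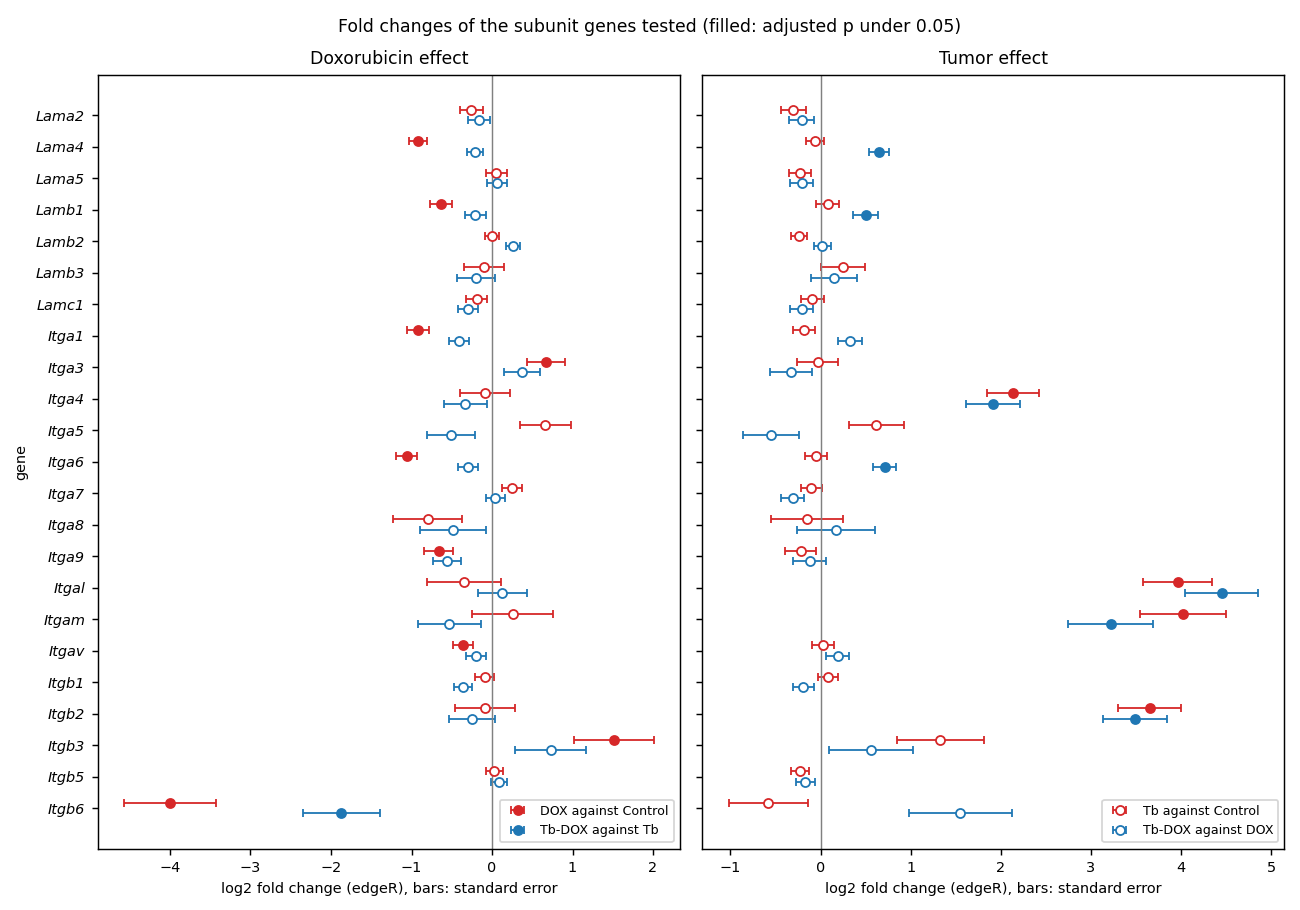
Log2 fold change (x axis, edgeR with TMM scaling) with its standard error for each of the 23 genes tested (y axis), for DOX without and with a tumor on the left and for the tumor without and with DOX on the right; filled points have an adjusted p under 0.05. On the left 9 points are filled in DOX against Control and 1, Itgb6, in Tb-DOX against Tb, and on the right Itgal, Itgam, Itgb2 and Itga4 stand at log2 1.91 to 4.45 in both comparisons.

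Lama4 (chr10:38841511-38986184, plus strand, GRCm39 as named by the submitters' processing notes) had the lowest adjusted p of the 23 genes. Its levels were 6.23, 6.95, 7.28, 7.65 and 8.36 FPKM in the Control libraries and 3.34, 3.90, 3.26, 3.39 and 3.60 FPKM in the DOX libraries. No DOX library reached the lowest Control library. The fitted log2 fold change was −0.92 (SE 0.11, edgeR adjusted p = 7.31e-06), a level 1.89-fold lower. The share of Lama4 in the summed laminin alpha FPKM was 31.5% ± 3.05 in Control and 21.2% ± 2.46 in DOX, while that of Lama5 was 27.5% ± 4.83 and 35.5% ± 4.91 (SD, n = 5 each). These shares are given as a description, without a test.

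Lamb1, which encodes the beta chain often joined to Lama4 in capillaries, was at 9.50, 9.73, 10.67, 10.32 and 10.97 FPKM in Control and at 6.57, 6.25, 4.05, 4.86 and 8.19 FPKM in DOX. All DOX libraries lay below all Control libraries, and DOX replicate 5 was the nearest. Its fitted log2 fold change was −0.63 (edgeR, SE 0.136, adjusted p = 0.00136). The other beta chains did not pass the test. For Lamb2, the main beta chain of heart muscle, the fitted difference was 0.00 on the log2 scale (SE 0.0914, adjusted p = 0.992), and for Lamb3, a chain of epithelial laminin, it was −0.10 (adjusted p = 0.778). The Lamb3 gene lies over Hsd11b1 and G0s2 on the other strand, with mean counts of 181, 224 and 153, and the strand setting of the counting is not given in the sources used here, so its level is uncertain.

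The remaining abundant laminin chains did not pass the test without a tumor. Lamc1, the gamma chain of nearly all laminins, had a log2 fold change of −0.19 (adjusted p = 0.274). Lama2, the muscle alpha chain, had one of −0.26 (adjusted p = 0.162). Both were called lower when Control replicate 3, the library with the lowest value of both in its group, was left out (Lamc1 −0.32, adjusted p = 0.0138, and Lama2 −0.36, adjusted p = 0.0408). Scaled by totals alone, both were called lower as well (−0.31 and −0.40), beside 25.2% of all genes. Lama2 was also called lower in limma on log2(FPKM + 0.1) and log2(FPKM + 1) (−0.39 and −0.35), beside 25.5% and 25.0% of all genes.

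Among the laminin-binding alpha subunits, Itga6 fell and Itga3 rose. Itga6 (chr2:71575960-71688760, plus strand), the laminin receptor chain of endothelial cells and many other cell types, was at 5.44, 6.03, 5.09, 6.71 and 7.57 FPKM in Control and at 2.60, 2.75, 2.64, 2.54 and 2.95 FPKM in DOX. The groups did not overlap, and the DOX libraries lay close together. The Itga6 change was −1.06 on the log2 scale (SE 0.13, adjusted p = 8.9e-06), a level 2.08-fold lower. Itga3, a receptor chain for laminins of several kinds, was at 1.68, 1.75, 1.60, 1.56 and 1.34 FPKM in Control and at 2.36, 2.19, 3.19, 1.84 and 1.99 FPKM in DOX, again without overlap. Its log2 fold change was 0.67 (SE 0.236, adjusted p = 0.0308). The Itga3 call was lost without Control replicate 3, 4 or 5 (log2 fold changes of 0.65, 0.68 and 0.61) or without DOX replicate 1 or 3 (0.65 and 0.58), with scaling by totals (0.54) and in limma with either pseudocount (0.50 and 0.35). Itga7, the muscle chain, had a log2 fold change of 0.25 (SE 0.123, adjusted p = 0.12), with 12.84 to 14.66 FPKM in Control and 11.77 to 18.80 FPKM in DOX.

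Itga1, the chain of a collagen and laminin receptor, and Itga9, a chain that binds tenascin and other matrix proteins, also fell. Itga1 was at 4.92, 5.43, 4.50, 5.76 and 6.51 FPKM in Control and at 3.06, 2.44, 2.76, 2.78 and 2.03 FPKM in DOX, and its log2 fold change was −0.92 (SE 0.132, adjusted p = 3.29e-05). Itga9 was at 8.70, 8.93, 12.22, 10.75 and 10.50 FPKM in Control and at 6.12, 5.20, 5.93, 7.22 and 4.71 FPKM in DOX, with a log2 fold change of −0.66 (SE 0.18, adjusted p = 0.00663). Neither gene showed overlap between the groups. The gene Pelo lies within Itga1 on the same strand, and its mean count was 101 against 1220 for Itga1. Counts of Itga2, Itga10 and Itga11, the other collagen-binding alpha chains, were below the expression filter, at mean levels of 0.150 to 0.199 FPKM.

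Of the alpha subunits that read the arginine-glycine-aspartate motif of fibronectin and related proteins, 1 of the 3 tested fell. Itgav, the alpha chain shared by several such receptors, was at 3.32, 3.66, 3.08, 3.55 and 4.02 FPKM in Control and at 3.03, 2.39, 2.19, 1.94 and 2.92 FPKM in DOX. The groups did not overlap but nearly touched, at 3.08 and 3.03 FPKM, and the fitted change was −0.36 on the log2 scale (SE 0.127, adjusted p = 0.0296). The Itgav call was lost without Control replicate 2, 4 or 5 (−0.34, −0.35 and −0.31), without DOX replicate 2, 3 or 4 (−0.36, −0.28 and −0.29), without the filter (−0.35) and in a fit on the DOX and Control libraries alone (−0.36). Itga5 was at 10.71, 10.03, 9.89, 9.32 and 9.05 FPKM in Control and at 11.84, 11.33, 15.75, 16.21 and 15.45 FPKM in DOX. Although its groups did not overlap, the log2 fold change of 0.66 (SE 0.315, adjusted p = 0.105) did not pass. Without Tb replicate 5, a library of neither group that held 37.83 FPKM of Itga5 and enters the shared estimate of spread, the adjusted p was 0.000158 at a log2 fold change of 0.67. Itga8, a chain of mesenchymal and smooth muscle cells, was at 0.67 to 1.19 FPKM in Control, at 0.20, 0.34, 0.27 and 0.22 FPKM in DOX replicates 2 to 5 and at 1.44 FPKM in DOX replicate 1. Its log2 fold change was −0.80 (adjusted p = 0.153), and without DOX replicate 1 it was −1.77 (adjusted p = 0.000264).

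Among the beta subunits that pair with Itgav, Itgb6 fell and Itgb3 rose. Itgb6 (chr2:60428636-60552987, minus strand), known from epithelial cells as an activator of latent TGF-beta, was at 1.39, 1.88, 2.71, 2.96 and 3.66 FPKM in Control and at 0.07, 0.08, 0.10, 0.04 and 0.43 FPKM in DOX. The Control libraries held 157 to 397 counts of it and the DOX libraries 4 to 43. The fitted change of Itgb6 was −4.0 on the log2 scale (SE 0.567, adjusted p = 2.91e-05), a level 16-fold lower and the largest change of any of the 23 genes in this comparison. Without DOX replicate 5, the highest of its group, it was −4.97. The means of Itgb6 were 0.144 FPKM in DOX and 0.472 FPKM in Tb-DOX, so it passed the filter of 0.5 FPKM through Control and Tb. Its call in DOX against Control was kept without the filter, where 14.5% of all genes were called. Itgb3, the beta chain of platelets, macrophages and activated endothelium, was at 0.39, 0.36, 0.69, 0.25 and 0.31 FPKM in Control and at 1.00, 1.19, 1.46, 1.11 and 0.40 FPKM in DOX. DOX replicate 5 lay among the Control libraries and the other 4 above them. The Itgb3 log2 fold change was 1.51 (SE 0.498, adjusted p = 0.0221). That call was lost without Control replicate 4 or 5 (1.39 and 1.43) and in limma on log2(FPKM + 0.1) or log2(FPKM + 1) (1.14 and 0.52), so the count of genes that rose was 0 without either Control library, 1 without Control replicate 3 or DOX replicate 1 or 3, and 0 in limma. Itgb5 and Itgb1 had log2 fold changes of 0.03 (SE 0.107, adjusted p = 0.837) and −0.09 (SE 0.118, adjusted p = 0.582).

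**Figure D2:**
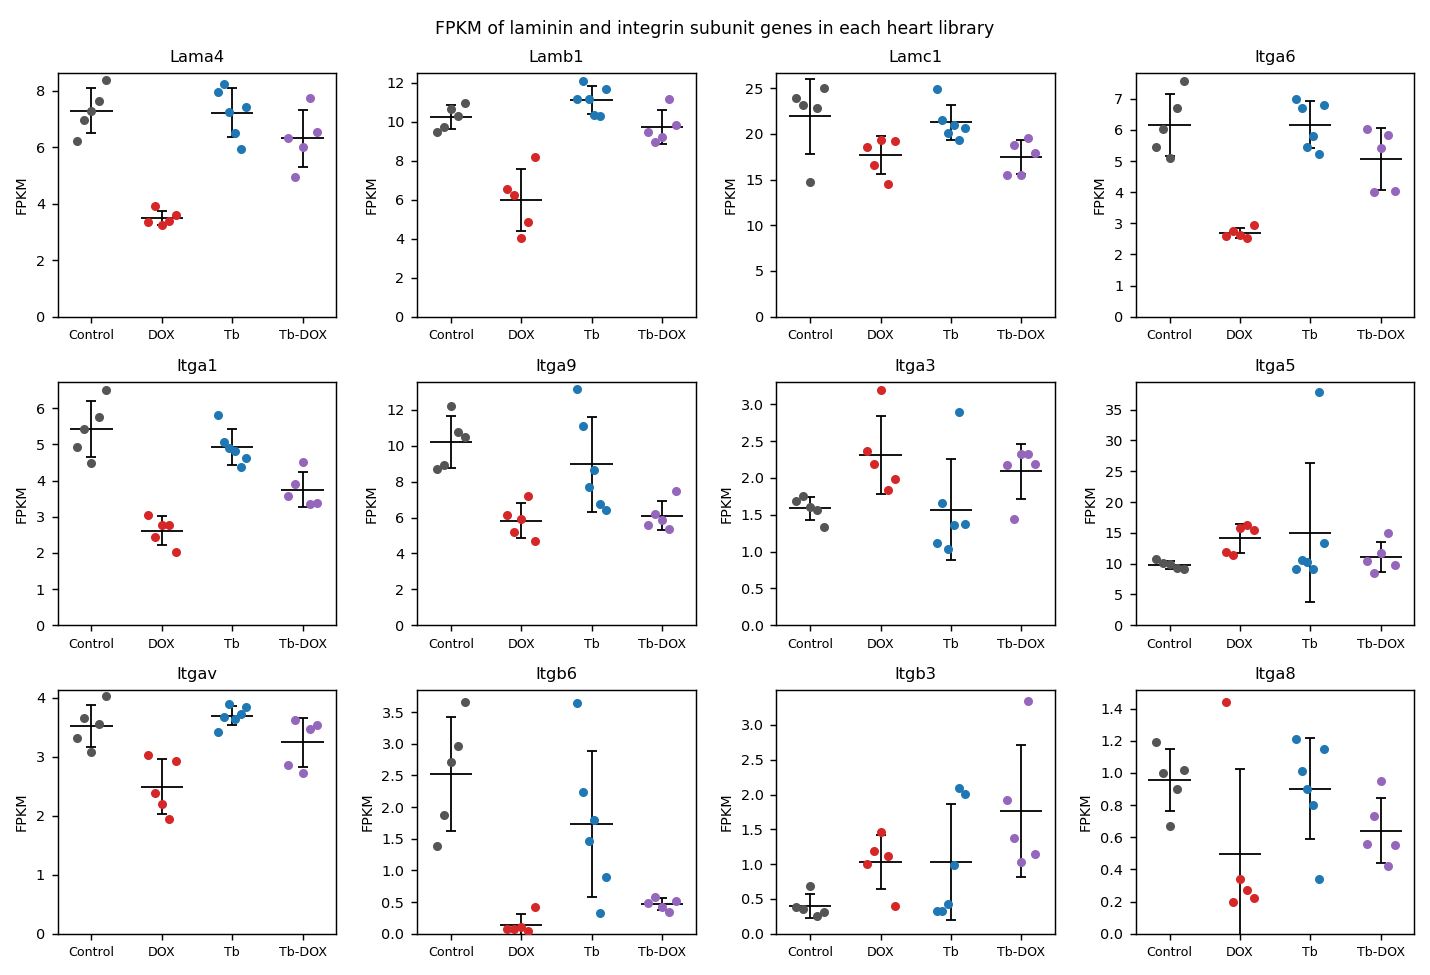
FPKM (y axis, starting at 0) of 12 subunit genes in each library, by group (x axis); points are libraries, the long bar is the group mean and the error bar 1 SD, cut at 0 where it would run below. The DOX points of Lama4, Lamb1, Itga6, Itga1, Itga9 and Itgav lie below all Control points, those of Itga3 and Itga5 lie above them, and Tb replicate 5 stands apart for Itga5 at 37.83 FPKM.

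In whole hearts, fewer cells of a type and less RNA per cell cannot be told apart. The summed level of 7 endothelial markers was 732 to 897 CPM in Control and 627 to 830 CPM in DOX, and 1 of the 7, Tie1, fell (log2 fold change −0.38, adjusted p = 0.00396) while 6 did not pass. The sum of 7 fibroblast markers was 1180 to 1660 CPM in Control and 913 to 1440 CPM in DOX, with 4 lower and 1 higher and a median log2 fold change of −2.12. Dcn, the most abundant of the 7, had 0.30 (adjusted p = 0.0779), while Col1a1, Col1a2, Col3a1 and Lum had −2.19, −2.12, −3.71 and −2.21. The marker called higher was among the remaining members, Pdgfra and Tcf21, so the list did not move in a single direction. The sum of 6 macrophage markers was 96.3 to 119 CPM in Control and 38.9 to 76.4 CPM in DOX, with 5 lower. The sum of 7 cardiomyocyte markers was 49700 to 65300 CPM in Control and 69300 to 81600 CPM in DOX, with 3 higher. None of these markers was at 0 in either group. The sum of 7 erythroid markers was 204 to 798 CPM in Control and 4.73 to 132 CPM in DOX, and all 5 above the filter fell, as they did in Tb-DOX (2.47 to 28.9 CPM) against Tb (371 to 835 CPM). Their part in the changes of the subunit genes was not tested.

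Of the 7 genes that fell with DOX, 5 matched a RefSeq start region (Itga1, Lamb1, Itgb6, Itga9 and Itgav), and those of the 3 with the lowest adjusted p are shown as genes that moved the same way. Each is the 250 bases upstream of a RefSeq start on GRCm38.p6, 5′ to 3′ on the gene's strand, and capitals mark matches on either strand to 4 motifs. These are the GC box (letters GGGCGG), the TATA box (letters TATAAA), the AP-1 site (letters TGANTCA) and the ETS site (letters AGGAAGT). RefSeq start regions were matched for 23 of the 36 genes, and of all 32851 such windows 32.7% held the GC box, 12.4% TATAAA, 6.75% the AP-1 letters and 7.69% the ETS letters. The Itga1 window is chr13:115101965-115102214 (minus strand), the Lamb1 window chr12:31265043-31265292 (plus strand), and Itgb6 has an outer start at chr2:60722604-60722853 and an inner one at chr2:60673694-60673943 (both minus strand).
Itga1: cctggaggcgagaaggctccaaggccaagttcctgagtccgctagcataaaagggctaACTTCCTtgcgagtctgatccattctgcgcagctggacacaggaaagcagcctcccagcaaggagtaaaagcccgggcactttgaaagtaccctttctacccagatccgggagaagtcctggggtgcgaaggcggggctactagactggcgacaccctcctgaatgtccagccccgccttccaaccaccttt
Lamb1: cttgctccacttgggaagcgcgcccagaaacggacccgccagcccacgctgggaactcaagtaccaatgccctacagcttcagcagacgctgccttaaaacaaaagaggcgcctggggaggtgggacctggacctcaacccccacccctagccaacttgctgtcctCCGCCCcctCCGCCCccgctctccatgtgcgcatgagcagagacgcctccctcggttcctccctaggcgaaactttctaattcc
Itgb6, outer start: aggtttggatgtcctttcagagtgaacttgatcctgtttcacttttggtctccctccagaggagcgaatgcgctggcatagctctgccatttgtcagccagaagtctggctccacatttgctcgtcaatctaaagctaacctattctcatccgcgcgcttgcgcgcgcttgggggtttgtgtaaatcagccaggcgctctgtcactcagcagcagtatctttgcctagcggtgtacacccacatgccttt
Itgb6, inner start: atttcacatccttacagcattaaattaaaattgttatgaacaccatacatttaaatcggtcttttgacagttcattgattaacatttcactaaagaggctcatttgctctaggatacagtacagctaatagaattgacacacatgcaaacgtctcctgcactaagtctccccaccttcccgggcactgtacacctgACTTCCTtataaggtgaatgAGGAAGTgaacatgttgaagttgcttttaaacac
Itga1 held 1 ETS match and no GC box, Lamb1 held 2 GC boxes and no ETS match, the outer Itgb6 window held none of the motifs, and its inner window held 2 ETS matches. The Itgav window held 1 ETS match and that of Itga9 none of the motifs. No motif was shared by all 5 genes. A match describes the letters alone.

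The second comparison asked for the effect of DOX in tumor-bearing mice. Of the 23 genes, 1 fell and none rose in Tb-DOX against Tb by edgeR, where 4.72% of all genes tested were called, 2.18% as higher and 2.54% as lower. At an unadjusted p under 0.05, 1 was higher and 6 were lower in edgeR, beside 9.35% and 11.1% of all genes. DESeq2 called 1 higher and 4 lower, beside 3.41% and 4.27% of all genes, and limma on log2(FPKM + 0.1) called 0, beside 1.44% and 1.41%. The gene that fell was again Itgb6, at a lowest, median and highest level of 0.33, 1.625 and 3.65 FPKM in the 6 Tb libraries and at 0.49, 0.58, 0.42, 0.35 and 0.52 FPKM in Tb-DOX. Tb replicate 5, at 0.33 FPKM, lay below all Tb-DOX libraries, so the groups overlapped. Itgb6 passed the filter through Control and Tb. With a tumor the change of Itgb6 was −1.87 on the log2 scale (SE 0.482, adjusted p = 0.0297). This call was lost without Tb replicate 1 or 2 (−1.49 and −1.78) and without any Tb-DOX replicate from 1 to 5 (−1.88, −1.96, −1.84, −1.75 and −1.93), in a fit on the Tb and Tb-DOX libraries alone (−1.87) and in limma with either pseudocount (−1.40 and −0.78). The count of genes that fell was 3 without Control replicate 3 or Tb replicate 6 and 2 without DOX replicate 5 or Tb replicate 5. Of all genes tested, 379, 523, 389 and 433 fell in these fits, in that order, where the full fit had 355. Without Tb replicate 5 Itga3 rose (0.70, adjusted p = 0.00976).

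Other genes lay near the threshold with a tumor. Itgb1 was at 126.12, 129.17 and 180.89 FPKM (lowest, median and highest) in Tb and at 110.50, 106.76, 103.30, 123.47 and 102.53 FPKM in Tb-DOX, the only one of the 23 genes whose libraries did not overlap, against 4.30% of all genes tested. Its log2 fold change of −0.36 (SE 0.114, adjusted p = 0.0712) did not pass, and DESeq2 called it lower (−0.37, adjusted p = 0.0397). Itga9 (−0.56, SE 0.173, adjusted p = 0.062) and Itga1 (−0.41, SE 0.126, adjusted p = 0.0638) also missed the threshold and were called by DESeq2 (adjusted p = 0.0243 and 0.0299). Lamb2 had a log2 fold change of 0.26 (SE 0.0873, adjusted p = 0.0868). The median log2 fold change was −0.21 over the 23 genes and −0.02 over all genes tested.

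The third question was whether the DOX effect differed between mice with and without a tumor, which the interaction term tests. Of the 23 genes, 2 passed (8.7%), Lama4 and Itga6, where 8.94% of all genes tested were called and 3.95% had a positive term. The count was thus near the share over all genes. For Lama4 the log2 fold changes were −0.92 without a tumor and −0.21 with it, and the interaction was 0.71 (SE 0.151, adjusted p = 0.0137). For Itga6 they were −1.06 and −0.30, and the interaction was 0.76 (SE 0.178, adjusted p = 0.0179). Both kept their interaction call in each of the 21 fits that left out 1 library, with values of 0.65 to 0.78 for Lama4 and 0.68 to 0.84 for Itga6. Itgb6 (2.13, adjusted p = 0.0645), Itga1 (0.51, adjusted p = 0.0722) and Itga5 (−1.17, adjusted p = 0.0858) did not pass. Without Tb replicate 5 the interaction was −0.57 (adjusted p = 0.0375) for Itga5. Without DOX replicate 5 it was 3.09 (adjusted p = 0.0118) for Itgb6. That gene also passed without Tb replicate 1 (2.51), without the filter (2.11), in DESeq2 (2.10) and in limma on log2(FPKM + 0.1) (2.14). Itga1 passed in limma with either pseudocount (0.64 and 0.50) and without Control replicate 3, DOX replicate 1 or Tb replicate 1 (0.60, 0.58 and 0.58). DESeq2 called Itga5 too (−1.19). Scaled by totals alone 5 passed, beside 906 positive and 279 negative terms of all genes, where TMM scaling gave 552 and 699. The count that passed was 4 without DOX replicate 1, DOX replicate 5 or Tb replicate 1.

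In tumor-bearing hearts Lama4 and Itga6 lay above their levels in the DOX libraries. Lama4 was at 5.94, 7.33 and 8.25 FPKM (lowest, median and highest) in Tb and at 6.32, 4.93, 6.02, 7.75 and 6.53 FPKM in Tb-DOX, so these groups overlapped and every library exceeded the highest DOX library at 3.90 FPKM. Itga6 was at 5.24, 6.27 and 6.98 FPKM in Tb and at 6.02, 4.00, 5.42, 5.85 and 4.03 FPKM in Tb-DOX, again all above the highest DOX library at 2.95 FPKM. Lamb1 showed the same order of groups, with 8.98 to 11.19 FPKM in Tb-DOX and 4.05 to 8.19 FPKM in DOX, but its interaction of 0.42 (SE 0.188, adjusted p = 0.145) did not pass. The summed endothelial markers were 742 to 983 CPM in Tb and 667 to 827 CPM in Tb-DOX, and 1 of 7, Tie1, had a positive interaction (0.47, adjusted p = 0.032), which was lost without Control replicate 2 or 3 or Tb-DOX replicate 3 or 5 (0.41 to 0.48). Of 7 fibroblast markers 3 had a positive interaction. Their part in the terms of Lama4 and Itga6 was not tested.

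**Figure D3:**
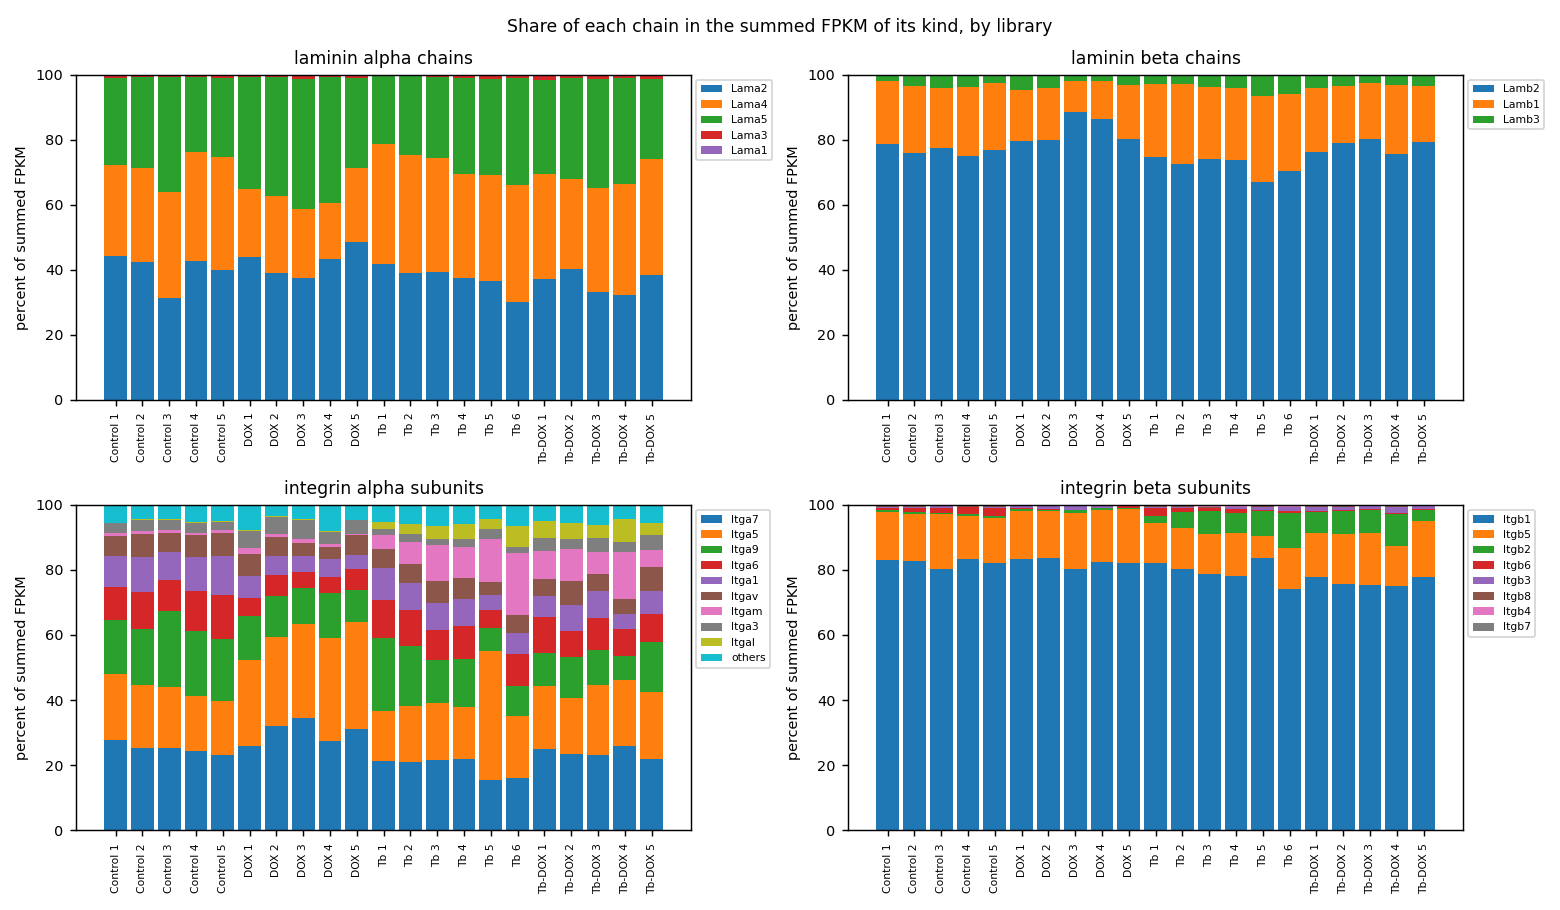
Share (y axis, percent) of each gene in the summed FPKM of its kind in every library (x axis), for laminin alpha and beta chains and integrin alpha and beta subunits; colours are genes, and the 9 integrin alpha genes with the largest shares are drawn apart from the others. The mean Lama4 share was 31.5% in Control, 21.2% in DOX, 34.7% in Tb and 32.3% in Tb-DOX, and Itgam and Itgal take visible shares in the tumor-bearing groups.

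The tumor itself was compared with and without DOX. In Tb against Control 4 of the 23 genes rose and none fell, where 6.28% of all genes tested were called, 5% as higher and 1.29% as lower. At an unadjusted p under 0.05, 3 were lower in edgeR, beside 8.28% of all genes, and DESeq2 and limma called 0 lower, beside 2.01% and 0.515%. Itgb2 is the common beta chain of leukocyte integrins, Itgal and Itgam are alpha chains that pair with it, and Itga4 is the chain by which leukocytes bind Vcam1 on endothelium. Itgb2 was at 0.80 to 0.95 FPKM in Control and at 3.76, 10.765 and 19.49 FPKM (lowest, median and highest) in Tb, with a log2 fold change of 3.65 (SE 0.345, edgeR adjusted p = 2.85e-07), or 12.5-fold higher. Itgal was at 0.04 to 0.23 FPKM in Control and at 1.27, 2.505 and 4.54 FPKM in Tb (3.96, SE 0.38, adjusted p = 3.38e-07). Itgam was at 0.35 to 0.49 FPKM in Control and at 2.47, 6.045 and 13.31 FPKM in Tb (4.02, SE 0.475, adjusted p = 5.09e-06). Itga4 was at 0.16 to 0.29 FPKM in Control and at 0.42, 0.94 and 1.86 FPKM in Tb (2.14, SE 0.288, adjusted p = 2.58e-05). All 4 genes separated the groups fully, against 5.73% of all genes tested. The means of Itgal, Itgam and Itga4 were below 0.5 FPKM in Control and in DOX, so these genes passed the filter through the tumor-bearing groups. Without the filter 5 of the 36 genes were called, against 3.37% of all genes. None of the other 19 genes passed in the filtered fit, where Itgb3 was called higher by DESeq2 (1.36, adjusted p = 0.0353) and without Tb replicate 1 (1.51, adjusted p = 0.0445). The log2 fold changes of Lama4 and Itga6 were −0.06 and −0.05.

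With DOX in both arms, Tb-DOX against DOX, 7 of the 23 genes rose and none fell, where 17.5% of all genes tested were called, 9.52% as higher and 7.93% as lower. Scaled by totals alone, 10 of the 23 genes rose and 0 fell, with Itgb6 (1.73), Itgav (0.38) and Itga1 (0.52) added, beside 2535 and 323 of all genes, where TMM scaling gave 1332 and 1110. The totals put the median of all genes at 0.18 (log2) here and TMM at −0.01. Limma on log2(FPKM + 0.1) also called 10 higher, with the same genes added, beside 17.8% of all genes. Itgb6, at 1.55 (adjusted p = 0.0664) in the main fit, was called in DESeq2 too (1.53) and without the filter (1.53). It also passed without DOX replicate 5 (2.51), Tb replicate 1 (1.55) or Tb replicate 5 (1.55). At an unadjusted p under 0.05, 1 was lower in edgeR, beside 15.6% of all genes, and DESeq2 and limma called 0 lower, beside 9.94% and 1.85%. Without Tb replicate 5, which enters the shared estimate of spread, 2 fell, namely Itga5 (−0.55, adjusted p = 0.00203) and Itga7 (−0.31, adjusted p = 0.0442), and Itga7 also fell without DOX replicate 1 (−0.37) or Tb-DOX replicate 4 (−0.41). Of all genes tested, 1658, 1124 and 727 fell in these fits, in that order, where the full fit had 1110. The leukocyte genes were again among the 7 that rose, and of these Itgal, Itgam and Itga4 passed the filter through the tumor-bearing groups. Without the filter 9 of the 36 genes were called in this comparison, against 6.45% of all genes. Itgal was at 0.16, 0.05, 0.19, 0.11 and 0.05 FPKM in DOX and at 2.91, 2.50, 2.23, 5.06 and 1.78 FPKM in Tb-DOX (log2 fold change 4.45, SE 0.402, adjusted p = 3.63e-07). Itgb2 was at 0.61 to 0.88 FPKM in DOX and at 9.22, 9.79, 9.91, 16.16 and 4.21 FPKM in Tb-DOX (3.49, SE 0.353, adjusted p = 1.21e-06). Itgam (3.22, adjusted p = 6.7e-05) and Itga4 (1.91, adjusted p = 0.000145) rose as well. The matrix genes Lama4 (0.65, SE 0.11, adjusted p = 0.000325), Itga6 (0.71, SE 0.13, adjusted p = 0.000712) and Lamb1 (0.50, SE 0.136, adjusted p = 0.0147) completed the 7, and the Lamb1 call was lost without DOX replicate 4 (0.43) and in a fit on the DOX and Tb-DOX libraries alone (0.50, adjusted p = 0.0535). The libraries did not overlap in 8 of the 23 genes, against 15.8% of all genes tested, the eighth being Itga1 (0.33, adjusted p = 0.0821). Each of these tumor comparisons shares a group of libraries with each of the DOX comparisons.

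**Figure D4:**
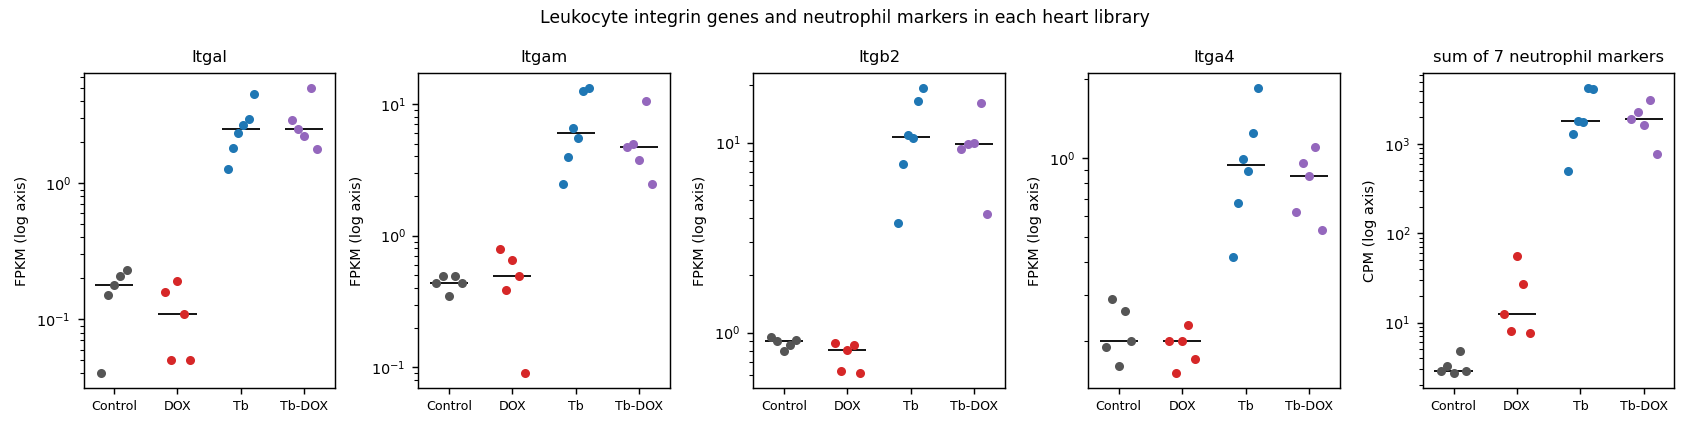
FPKM of Itgal, Itgam, Itgb2 and Itga4 and the summed CPM of 7 neutrophil markers in each library (y axes, log scale), by group (x axis); points are libraries and bars are medians. All Tb and Tb-DOX points lie above all Control and DOX points in each of the panels, with Itgb2 at 0.61 to 0.95 FPKM without and at 3.76 to 19.49 FPKM with a tumor.

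Neutrophil markers moved with the leukocyte integrins. The sum of 7 neutrophil markers was 2.69 to 4.75 CPM in Control, 7.71 to 56.3 CPM in DOX, 501 to 4330 CPM in Tb and 787 to 3180 CPM in Tb-DOX, and all 7 rose in both tumor comparisons. Ly6g was the only 1 of them at 0 in a group, Control. The Tb library lowest in Itgb2, replicate 1, also had the lowest neutrophil sum of its group, and so did replicate 5 of Tb-DOX. Macrophage markers summed to 113 to 148 CPM in Tb and 66.3 to 130 CPM in Tb-DOX, with 0 of 6 higher in Tb against Control by edgeR or DESeq2 (1 at an unadjusted p under 0.05, as 12.2% of all genes were) and 3 of 6 higher in Tb-DOX against DOX. The sum of 8 T cell and thymocyte markers was 0.528 to 2.23 CPM in Control, 5.34 to 312 CPM in DOX, 2.89 to 46.1 CPM in Tb and 3.04 to 11.9 CPM in Tb-DOX, with DOX replicate 4 at 312 CPM and Tb replicate 5 at 46.1 CPM apart from their groups. Cd3e, the only 1 of the 8 above the filter, had 66 to 3854 counts in DOX against 0 to 21 in Control. In Tb-DOX against DOX its log2 fold change was −4.07 (adjusted p = 0.0245), and −1.13 (adjusted p = 0.45) without DOX replicate 4, and the call was also lost without Tb-DOX replicate 1, 3, 4 or 5 (−4.02 to −3.92). In Tb against Control it was 3.53 (adjusted p = 0.15), and 0.86 (adjusted p = 0.819) without Tb replicate 5, but passed without DOX replicate 4 (adjusted p = 0.0423). Cd3d held 0 to 5 counts in Control, 0 to 2 in DOX, 9 to 44 in Tb and 9 to 35 in Tb-DOX. Rag1, Dntt and Ptcra were at 0 in Control and Ptcra in Tb-DOX. The sum of 5 B cell markers was 1.03 to 2.19 CPM in Control, 0.886 to 1.47 CPM in DOX, 2.41 to 7.42 CPM in Tb and 0.239 to 2.92 CPM in Tb-DOX, with none above the filter. In DOX against Control 5 of 7 neutrophil markers rose, while Itgb2 (−0.09, adjusted p = 0.871), Itgam (0.26, adjusted p = 0.713) and Itgal (−0.35, adjusted p = 0.57) did not pass. The part of these cells in the integrin levels was not tested.

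Start regions of Itgam and Itga4 are shown as those of genes that rose with the tumor, from the same source and with the same capitals. The Itgam window is chr7:128062390-128062639 and the Itga4 window chr2:79255176-79255425 on GRCm38.p6, both on the plus strand.
Itgam: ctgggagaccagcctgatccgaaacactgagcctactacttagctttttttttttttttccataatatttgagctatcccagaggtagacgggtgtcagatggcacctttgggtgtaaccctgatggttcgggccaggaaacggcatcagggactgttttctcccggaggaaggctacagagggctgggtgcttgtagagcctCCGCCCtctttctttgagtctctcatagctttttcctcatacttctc
Itga4: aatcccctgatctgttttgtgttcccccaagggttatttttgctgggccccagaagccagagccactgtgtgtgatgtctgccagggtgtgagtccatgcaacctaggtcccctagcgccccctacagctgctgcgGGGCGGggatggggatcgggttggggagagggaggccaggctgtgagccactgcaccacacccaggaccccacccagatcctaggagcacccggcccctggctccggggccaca
Each held 1 GC box, which 32.7% of all windows held, and neither held the ETS, AP-1 or TATAAA letters.

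The 13 genes below the filter had mean levels of 0.0105 to 0.473 FPKM and were left out of the filtered fit. They were fitted without the filter, where 34543 genes were tested and 14.5% were called in DOX against Control. In that fit Itgb4, the hemidesmosome chain that pairs with Itga6, fell with DOX, with 31 to 49 counts in Control and 8 to 23 in DOX (log2 fold change −1.20, SE 0.32, adjusted p = 0.00771), and with edgeR's filterByExpr in place of the FPKM filter it was also higher in Tb-DOX than in DOX (0.94, adjusted p = 0.0284). Itgb8, a partner of Itgav, had 48 to 89 counts in Control and 14 to 47 in DOX (−0.96, SE 0.298, adjusted p = 0.0242). Itgad, a leukocyte chain, rose with DOX, with 1 to 24 counts in Control and 46 to 145 in DOX (2.67, SE 0.432, adjusted p = 2.77e-05), and was lower in Tb-DOX than in DOX (−1.80, adjusted p = 0.00361), where 6.45% of all genes passed without the filter. The Itgad gene overlaps Cox6a2, a muscle gene with a mean count of 7530, and 4931431B13Rik on the other strand, so its reads cannot be told apart from theirs while the strand setting is not known. Those neighbours had log2 fold changes of 0.27 and 3.18 in DOX against Control and of −0.06 and −2.03 in Tb-DOX against DOX, both in the filtered fit. The interaction of Itgad without the filter was −2.31 (adjusted p = 0.0211), where 3.56% of all genes passed. That of 4931431B13Rik was −2.94 in the filtered fit. Itgb7, the partner of Itga4 in gut-homing lymphocytes, rose in Tb against Control (1.72, SE 0.491, adjusted p = 0.0397), where 3.37% of genes were called. Itga2, Itga2b, Itga10, Itga11, Itgae, Itgax, Lama1, Lama3 and Lamc3 passed in none of the comparisons without the filter.

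Genes that work with these subunits were followed on lists written from general knowledge, with earlier results of these data known. Of 17 other basement membrane genes tested, 1 rose and 8 fell in DOX against Control, with a median log2 fold change of −0.41 against 0.00 over all genes, and 4 fell in Tb-DOX against Tb. Nid1, which links laminin to collagen IV, fell in both (−0.57, adjusted p = 0.00405, and −0.60, adjusted p = 0.017), and so did Col18a1 (−1.32, adjusted p = 4.6e-05, and −0.79, adjusted p = 0.017) and the matricellular gene Smoc2 (−1.61, adjusted p = 1.37e-06, and −0.94, adjusted p = 0.00201). The Col18a1 call with a tumor was lost without Tb-DOX replicate 5 (−0.67). The most abundant of the list, Col4a1 and Col4a2, the collagen IV chains, passed in neither, with log2 fold changes of −0.36 and 0.01 without a tumor, and Col4a1 passed without Tb replicate 5 (−0.35, adjusted p = 0.0254). The interaction was positive in 3 of the 17, where 3.95% of all genes tested had a positive term. Chosen after their values were seen, Col15a1, a collagen of vessel basement membranes, and Hspg2, which encodes perlecan, had their lowest mean in DOX, as Lama4 did. Col15a1 was at 11.9 ± 1.62, 1.41 ± 0.981, 10.9 ± 1.97 and 7.03 ± 3.41 FPKM in Control, DOX, Tb and Tb-DOX. Hspg2 was at 21.2 ± 1.54, 14.5 ± 1.18, 17.5 ± 1.46 and 20.9 ± 2.67 FPKM in the same groups. Since this pattern chose them, it is a description.

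Of 18 genes of the dystroglycan complex, the other main laminin receptor of muscle, 1 rose and 5 fell in DOX against Control, and 3 rose and 1 fell in Tb-DOX against Tb. Dtna, which encodes alpha-dystrobrevin, rose in both comparisons (0.75, adjusted p = 8.29e-05, and 0.58, adjusted p = 0.00609). Sspn, which encodes sarcospan, fell in both (−0.79, adjusted p = 0.000218, and −0.54, adjusted p = 0.024), where the call with a tumor was lost without Tb replicate 1, 2 or 3 or Tb-DOX replicate 2, 4 or 5 (−0.55 to −0.46). Dag1, the receptor itself and the most abundant of the list, had log2 fold changes of 0.18 (adjusted p = 0.132) and 0.05 (adjusted p = 0.804).

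On the inner side of the membrane, 6 of 21 adaptor and activator genes rose and 3 fell in DOX against Control, and 1 rose in Tb-DOX against Tb. That gene was Tns1, which encodes tensin, an actin-binding adaptor and the most abundant of the list at a mean of 99.6 FPKM. It rose by a log2 fold change of 1.08 (SE 0.14, adjusted p = 1.4e-05) without a tumor and 0.62 (SE 0.133, adjusted p = 0.0106) with it. Itgb1bp2, which encodes the muscle protein melusin that binds the tail of Itgb1, had log2 fold changes of 0.02 (adjusted p = 0.926) and 0.45 (adjusted p = 0.0829), the latter with a call without Control replicate 3 (adjusted p = 0.0483) or DOX replicate 3 (adjusted p = 0.0428). Of 11 signaling genes that act near the integrin tail, namely kinases, docking proteins, small GTPases and a GTPase regulator, 1 fell without a tumor and 2 with it. The most abundant of them, Rap1b and Rap1a, which are small GTPases, passed in neither, with log2 fold changes of 0.12 and 0.13 without a tumor and −0.47 and −0.18 with it. Fyn, a Src family kinase, was called in both (−0.54, adjusted p = 0.00224, and −0.46, adjusted p = 0.0321), and Ptk2, the focal adhesion kinase, chosen after its values were seen, had −0.26 (adjusted p = 0.0594) and −0.37 (adjusted p = 0.0415). With a tumor the Fyn call was lost without Tb replicate 1, 2 or 3 or Tb-DOX replicate 1, 2, 4 or 5 (−0.47 to −0.42). The Ptk2 call there was lost without Control replicate 2 or 5, Tb replicate 1, 2, 3 or 4 or any Tb-DOX replicate (−0.41 to −0.31). Without a tumor Ptk2 passed when Control replicate 1 (−0.33), DOX replicate 4 (−0.33) or Tb-DOX replicate 2 (−0.26) was left out.

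Integrins also bind ligands other than laminin, in the matrix and on the surface of other cells. Of 17 soluble and matrix ligands, 2 rose and 6 fell in DOX against Control, and 1 rose and 3 fell in Tb-DOX against Tb. Fn1, fibronectin, fell in both (−1.17, adjusted p = 2.82e-05, and −0.59, adjusted p = 0.0334), as did Postn, periostin (−1.98, adjusted p = 9.56e-05, and −1.08, adjusted p = 0.0421), while Thbs2, a thrombospondin, rose in both (1.93, adjusted p = 8.78e-06, and 1.01, adjusted p = 0.0127). With a tumor the Fn1 call was lost without Tb replicate 4 or 6 or Tb-DOX replicate 1, 2, 3 or 5 (−0.61 to −0.52), and the Postn call without Control replicate 1, 4 or 5, Tb replicate 1, 2 or 3 or any Tb-DOX replicate (−1.21 to −0.91). Ccn2, the most abundant of the list, rose without a tumor (1.96, adjusted p = 0.0108) and had −0.42 (adjusted p = 0.713) with it, which turned to 0.57 (adjusted p = 0.415) without Tb replicate 5. Ccn1, a matricellular protein like Ccn2 and the next most abundant, had 0.54 (adjusted p = 0.549) without a tumor and fell with it (−3.03, adjusted p = 0.0167, or −1.26, adjusted p = 0.0101, without Tb replicate 5). Of 8 cell-surface ligands 5 fell without a tumor and none passed with it in edgeR, where 3 were lower at an unadjusted p under 0.05 and DESeq2 called 1 lower, beside 11.1% and 4.27% of all genes. Pecam1, an adhesion protein of endothelium and the most abundant of them, had 0.37 (adjusted p = 0.0639) and −0.15 (adjusted p = 0.611), and the former passed without DOX replicate 5 (0.49) or Tb replicate 5 (0.38). Jam2, a junction protein of endothelium and the next most abundant, fell without a tumor (−1.16, adjusted p = 1.95e-05) and had −0.38 (adjusted p = 0.144) with it. Vcam1, the ligand of Itga4, chosen after its values were seen, was among the 5 (−0.96, adjusted p = 0.000745). The counts of these lists stand against 18% of all genes called higher and 18.2% called lower without a tumor, and 2.18% and 2.54% with it.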

How the data were processed

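Heart RNA libraries were grouped by their labels (Control 5, DOX 5, Tb 6, Tb-DOX 5). The study's methods name mRNA capture on oligo(dT) beads, whereas the labels name such beads or rRNA depletion. The authors deposited 1 table holding, for each gene in each library, its read count and its FPKM. The submitters' processing notes name cutadapt, FastQC, HISAT2, HTSeq 0.6.1, DESeq2 1.34.0 and GRCm39, and the strand setting of the counting is not given in the sources used here. The deposited FPKM values equal the count divided by the exonic length listed by the authors and by the library total, on the usual scale, in 100% of values (tolerance 0.0051). Coordinates are those of the table. GENCODE M21 (GRCm38) lists all 36 genes at other positions, so GRCm38.p6 was used for the RefSeq start regions alone.

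The test was edgeR 4.0.16 (R 4.3.3) on the deposited counts, with TMM scaling, quasi-likelihood F tests, 1 coefficient per group and all 21 libraries in 1 fit, for the 13990 genes whose mean FPKM reached 0.5. Two-sided p-values were adjusted by the Benjamini-Hochberg method across all genes in the fit, and a gene was said to have risen or fallen at an adjusted p under 0.05. Each SE is the absolute log2 fold change divided by the square root of F. Depth was 13521200 to 18601445 counts, and TMM factors were 0.881 to 1.14. Replicates of a group differed beyond counting error (chi-square per degree of freedom of at least 6.07 over 45 pairs).

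Described in full were members called in either DOX comparison or in the interaction and the most abundant of each role group. Of each pathway list the 2 most abundant genes and those called in both DOX comparisons were named, and any further gene is marked as chosen after seeing its values. Of the genes that fit the symbol rule 1, and of the pathway lists 1, are not reported here and enter no count of members. The members and lists were chosen with earlier results of these data known. Alternatives were median-ratio scaling, library totals, no filter or filterByExpr, DESeq2 1.42.0, limma 3.58.1 on log2(FPKM + 0.1) and log2(FPKM + 1), only the groups compared, the replicate number as a block, a minimum absolute log2 fold change of 1 and leaving out each library.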

Additional observations from a re-analysis of the deposited data

Results flagged for a closer look

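In 11 of the 92 sets of 1 gene and 1 group, 1 library stood apart from the rest by Dixon's test, which chance alone reaches in about 1 in 20 sets (4.6 of 92), and 4 of the 11 were in Tb replicate 5. That library was highest of its group for Itga5 (37.83 FPKM), Itga3 (2.89 FPKM) and Itgb1 (180.89 FPKM) and lowest for Lamb2 (26.25 FPKM). Tb-DOX replicate 2 was lowest for Itga3 (1.44 FPKM). Control replicate 3 was lowest for Lama2 (7.01 FPKM) and Lamc1 (14.70 FPKM), and Tb-DOX replicate 3 was lowest for Lama2 (6.24 FPKM). Control replicate 1 was highest for Itga7 (14.66 FPKM), DOX replicate 1 for Itga8 (1.44 FPKM) and DOX replicate 5 for Itgb6 (0.43 FPKM).

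The DOX effect differed between mice with and without a tumor for 2 genes by the interaction term in edgeR, Lama4 (0.71 on the log2 scale, adjusted p = 0.0137) and Itga6 (0.76, adjusted p = 0.0179). The 2 genes are 8.7% of the 23 tested, near the 8.94% called over all genes.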

How the results depend on the processing

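Of the 23 calls of single genes, 711 alternative values were computed. Of these, 668 kept their direction and call, 43 kept their direction without passing and 0 reversed. In DOX against Control the count of genes that rose (2) was 1 with library totals, 0 in limma with either pseudocount, 1 with a minimum absolute log2 fold change of 1 and 0 to 3 when 1 library was left out (0 without Control replicate 4 or 5, 1 without Control replicate 3 or DOX replicate 1 or 3), and the count that fell (7) was 2 with that minimum and 6 to 9 without 1 library. In Tb-DOX against Tb the count that rose (0) was 1 in DESeq2 and 0 to 1 without 1 library, the 1 being Itga3 without Tb replicate 5 (log2 fold change 0.70, adjusted p = 0.00976). The count that fell there (1) was 2 without the filter, 4 in DESeq2, 0 in limma with either pseudocount, 0 with only the groups compared and 0 to 3 without 1 library (0 without Tb replicate 1 or 2 or Tb-DOX replicate 1, 2, 4 or 5, 2 without Tb replicate 5 or DOX replicate 5, 3 without Tb replicate 6 or Control replicate 3). In Tb against Control 4 to 5 rose and 0 fell without 1 library. In Tb-DOX against DOX the count that rose (7) was 10 with library totals, 4 with the minimum fold change and 6 to 9 without 1 library, and the count that fell (0) was 1 without the filter, 1 with filterByExpr, 1 with only the groups compared and 0 to 2 without 1 library (2 without Tb replicate 5, namely Itga5 and Itga7, and 1 without DOX replicate 1 or Tb-DOX replicate 4, namely Itga7). The interaction count (2) was 5 with library totals, 4 without the filter, 4 in DESeq2, 4 in limma with either pseudocount, 0 with the minimum fold change and 2 to 4 without 1 library (4 without DOX replicate 1 or 5 or Tb replicate 1). Of all genes 8.47% passed the interaction with totals, 3.56% without the filter, 14.6% in DESeq2 (where 872 had no adjusted p) and 6.90% and 6.94% in limma. In Tb-DOX against Tb 1.67% were called without the filter, 7.68% in DESeq2 and 2.85% and 3.48% in limma. In that comparison 135 to 523 of all genes fell when 1 library was left out, where the full fit had 355. The cause of these shifts was not tested, apart from the minimum fold change, which only removes calls and left 9.95% of all genes called in DOX against Control, 5.62% in Tb-DOX against DOX and 3.89% in the interaction. Itgal held 4 to 23 counts in the Control libraries and Itgb6 4 to 43 in the DOX libraries, so their fold changes rest on few counts.

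Residuals of same-numbered libraries correlated at −0.261 to 0.233, with 5 of 30 pairs over 0.1, so the numbers were not taken to pair the samples. With the replicate number as a block, 2 genes fell in Tb-DOX against Tb in place of 1, and in DOX against Control 2 rose and 8 fell. The block gave the same counts as the unblocked fit for the other comparisons, 4 risen in Tb against Control, 7 risen in Tb-DOX against DOX and 2 in the interaction.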
